A study of Mus musculus with 12 samples.

Results

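MOF binding sites of haematopoietic stem cells (HSC) and of megakaryocyte-erythroid progenitors (MEP), both sorted from wild-type mice, were compared site by site and by the genes they lay at. MOF was mapped by chromatin immunoprecipitation and sequencing (ChIP-seq) with an anti-MOF antibody in bone marrow cells of C57BL/6 animals. The HSC library was made from 15000 sorted lineage-negative, Sca-1-positive, Kit-positive cells without CD34 and Flt3. The MEP library was made from 30000 sorted lineage-negative, Kit-positive cells without Sca-1, CD34, IL7r and CD16/32. The 2 groups share genotype and strain and differ in the sorted cell type and in the number of cells. The series held 12 samples, and peak lists of 5 of them were available here. The other lists used are MOF in HSC and in MEP of Mof -/+ animals, and GATA1 in HPC7, a cultured haematopoietic progenitor line of wild-type genotype. The sources used here give neither the age and sex of the animals nor whether several were pooled for a sort. Each group has 1 library, so no difference below has a replicate check, no p-value is given, and all intervals are 95% Wilson intervals that cover counting error only. A list of binding sites measures no expression, so it does not check the sorted identity of the cells.

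MOF, encoded by Kat8, is the acetyltransferase that places acetyl groups on lysine 16 of histone H4, a mark of open and active chromatin. It works in a pair of complexes, MSL and NSL. The NSL complex is known for its presence at the promoters of broadly expressed, housekeeping genes. HSC sustain all blood lineages, and MEP are committed to red cells and platelets.

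In the deposited lists a peak is its 1-bp summit and a −log10 value of the authors, taken here as a −log10 q-value. It scores how significant a peak is and is not a fold enrichment. Each summit was widened by 150 bp on both sides to a site of 301 bp. After sites on sequences other than chromosomes 1 to 19 and X (26 in HSC, 44 in MEP) and on chromosome 9 below 4 Mb (11 and 25) were set aside, 1839 of 1876 HSC sites and 829 of 898 MEP sites remained. These 2668 sites compare with 3653 peaks in the 5 deposited lists. The median value was 5.29 in HSC and 5.38 in MEP, and the lowest values were 1.31 and 1.35. The number of reads behind each list is unknown, and a site called in 1 list only may have been bound below the calling threshold in the other cell type.

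Of the sites, 1585 were called in HSC and overlapped no MEP site (HSC only), 254 pairs overlapped by at least 1 bp (shared), and 575 were called in MEP and overlapped no HSC site (MEP only). The shared sites were 13.8% of the HSC list (12.3 to 15.5) and 30.6% of the MEP list (27.6 to 33.9). Summits of a shared pair lay a median of 69.5 bp apart, and 166 of the 254 pairs (65.4%) lay within 100 bp. Sites of 1 list seldom had a site of the other list nearby without overlap: 25 of the 1585 HSC-only sites (1.58%) and 21 of the 575 MEP-only sites (3.65%) had one within 1 kb. With the HSC list shortened to its 829 highest values, so that both lists were of equal length, there were 681 HSC-only, 148 shared and 681 MEP-only sites. The MEP-only class then included MEP sites that overlapped an HSC site left out of the shortened list.

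Promoter stretches around the highest summits show the kind of sequence at which the classes lay. Each stretch, taken from the RefSeq promoter table of GRCm38.p6, reaches up to 75 bp to either side of the summit, ends before the gene start and reads 5′ to 3′ along the gene. For each class the 4 highest sites are shown whose stretch held at least 100 bases and lay outside every annotated gene. Capitals mark matches, on either strand, to any of 8 motifs searched: that of ETS factors (CCGGAAG), of SP1 and KLF factors (GGGCGG), of NF-Y (CCAAT), of CREB and ATF factors (TGACGTCA), of GATA family factors (AGATAA), the core promoter box TATAAA, and a longer motif each for NRF1 and YY1. None of the motifs contains another.

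HSC-only promoters are shown for Tpt1 (chr14:75845121-75845255, plus strand), Aamdc (chr7:97579644-97579747, minus strand, a summit between Aamdc and Rsf1), the mismatch repair gene Msh6 (chr17:87974800-87974901, plus strand) and Fem1b (chr9:62811671-62811821, minus strand), with deposited values of 20.3, 17.7, 16.9 and 16.5.
Tpt1: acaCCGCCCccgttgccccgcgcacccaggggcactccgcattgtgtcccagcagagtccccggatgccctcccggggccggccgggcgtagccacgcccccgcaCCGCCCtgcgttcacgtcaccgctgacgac
Aamdc: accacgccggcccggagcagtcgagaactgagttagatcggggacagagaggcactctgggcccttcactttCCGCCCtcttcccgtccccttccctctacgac
Msh6: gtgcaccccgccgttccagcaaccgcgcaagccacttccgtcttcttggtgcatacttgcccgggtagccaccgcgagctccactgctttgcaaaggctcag
Fem1b: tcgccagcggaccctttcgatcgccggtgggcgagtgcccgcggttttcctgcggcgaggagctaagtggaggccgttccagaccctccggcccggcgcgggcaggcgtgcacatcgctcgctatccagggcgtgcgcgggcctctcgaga
The Tpt1 stretch holds 2 GGGCGG matches in 135 bases and the Aamdc stretch 1 in 104, while those of Msh6 and Fem1b hold none of the motifs. The Fem1b stretch has 22 CpG dinucleotides in 151 bases.

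Shared promoters are shown for the nucleoside diphosphate kinase gene Nme1 (chr11:93968322-93968472, minus strand), Get4 (chr5:139252215-139252323, plus strand), Adprhl2 (chr4:126321704-126321835, minus strand) and Zbtb22 (chr17:33915926-33916058, plus strand).
Nme1: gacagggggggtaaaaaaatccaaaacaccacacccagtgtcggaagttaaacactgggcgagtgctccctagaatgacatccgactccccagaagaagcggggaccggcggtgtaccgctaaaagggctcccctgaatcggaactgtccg
Get4: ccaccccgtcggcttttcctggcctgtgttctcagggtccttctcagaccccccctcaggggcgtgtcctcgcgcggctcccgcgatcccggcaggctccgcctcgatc
Adprhl2: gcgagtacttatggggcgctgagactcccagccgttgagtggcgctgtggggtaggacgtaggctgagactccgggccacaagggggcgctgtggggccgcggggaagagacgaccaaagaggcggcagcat
Zbtb22: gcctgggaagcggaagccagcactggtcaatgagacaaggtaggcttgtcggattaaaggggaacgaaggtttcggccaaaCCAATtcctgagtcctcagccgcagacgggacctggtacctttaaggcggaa
Their values in HSC were 22.2, 18, 15.6 and 13, and those in MEP 8.74, 3.71, 5.08 and 4.77. The Zbtb22 stretch holds 1 CCAAT match, and the other stretches hold none of the motifs.

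MEP-only promoters are shown for Smarca5, which encodes the ATPase of ISWI chromatin remodellers (chr8:80739558-80739708, minus strand), Phf23 (chr11:69995516-69995643, plus strand), Eif4a3 (chr11:119300156-119300293, minus strand) and the kinase gene Akt2 (chr7:27591315-27591465, plus strand), with values of 15.9, 10.8, 10.8 and 10.3.
Smarca5: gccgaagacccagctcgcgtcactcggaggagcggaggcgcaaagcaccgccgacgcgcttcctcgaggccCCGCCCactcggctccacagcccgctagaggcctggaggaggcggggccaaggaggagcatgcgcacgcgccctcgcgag
Phf23: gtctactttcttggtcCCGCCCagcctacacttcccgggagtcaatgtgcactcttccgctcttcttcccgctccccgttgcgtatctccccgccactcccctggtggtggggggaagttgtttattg
Eif4a3: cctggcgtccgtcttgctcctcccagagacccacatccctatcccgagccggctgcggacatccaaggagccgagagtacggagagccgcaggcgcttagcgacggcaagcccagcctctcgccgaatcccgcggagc
Akt2: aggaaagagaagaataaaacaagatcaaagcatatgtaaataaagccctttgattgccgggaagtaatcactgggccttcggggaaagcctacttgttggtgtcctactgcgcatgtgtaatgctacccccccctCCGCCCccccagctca
The stretches of Smarca5, Phf23 and Akt2 hold 1 GGGCGG match each, and that of Eif4a3 none. Smarca5 has 20 CpG in its 151 bases and Akt2 has 4 in 151.

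HSC-only and shared sites lay at coding gene starts in similar shares, and MEP-only sites did so less often. A summit was counted at a gene start if it lay within 1 kb of it. For 4354 of the 21627 coding genes, which have no entry in the promoter table, either annotated end of the gene was used. By this rule 1044 of 1585 HSC-only sites (65.9%, 63.5 to 68.2), 167 of 254 shared sites (65.7%, 59.7 to 71.3) and 260 of 575 MEP-only sites (45.2%, 41.2 to 49.3) were at a coding gene. The MEP-only interval does not reach the other 2, and the order held with lists of equal length (67.1%, 60.1% and 49.6%). Among the sites at or above the median value of each list the shares were 67.1%, 50.5% and 48.9%, so there the shared class lay close to the MEP-only class. MEP-only sites lay more often inside coding genes (23.8%, against 14.8% of HSC-only and 10.2% of shared sites) and outside genes (19%, against 13% and 9.45%). Shared sites had the largest share at the ends of non-coding genes, with 12.6% (9.07 to 17.2) against 4.29% of HSC-only and 7.30% of MEP-only sites.

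**Figure D1:**
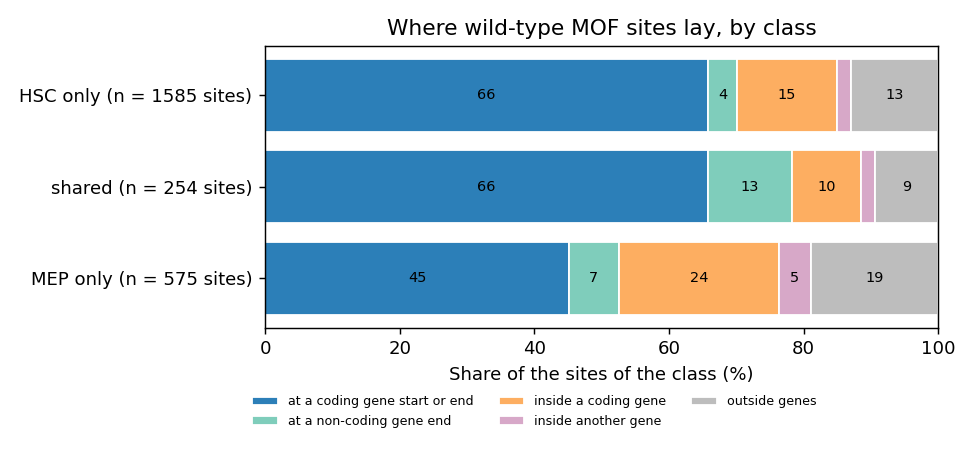
Share of the sites of each class (horizontal axis, %) by position, for 1585 HSC-only, 254 shared (HSC summits) and 575 MEP-only sites. The blue part, sites within 1 kb of a coding gene start or end, is 65.9% of the HSC-only, 65.7% of the shared and 45.2% of the MEP-only bar.

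Where the direction of transcription was known, summits sat close to the gene start in all 3 classes. The median position, negative upstream of the start, was −22 bp for 902 HSC-only sites (quartiles −126 and 65 bp), −55 bp for 142 shared sites (−162 and 53) and −74.5 bp for 214 MEP-only sites (−194 and 66.5). Within 250 bp of the start were 88.0% of these HSC-only, 85.2% of the shared and 76.6% of the MEP-only sites. Sites with a coding gene start on each strand within 1 kb made up 13.2% (119), 15.5% (22) and 13.6% (29). The summit did not have to lie between the starts. The classes did not differ beyond their intervals in this respect.

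**Figure D2:**
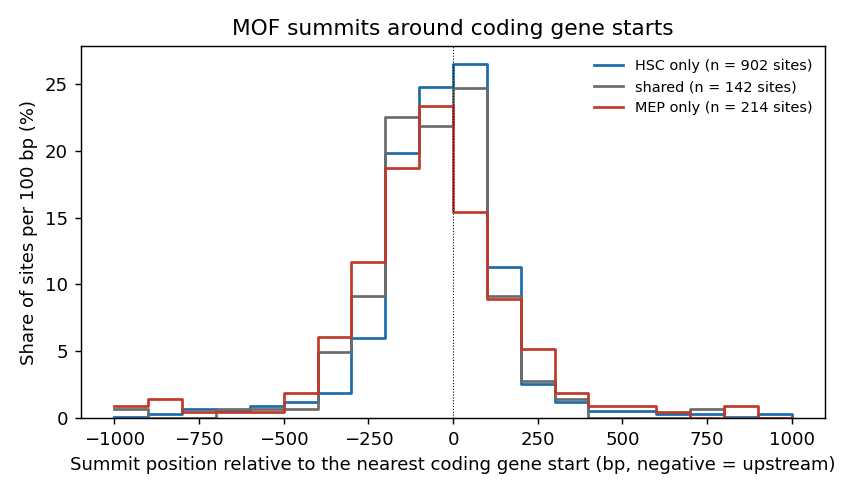
Summit positions relative to the nearest coding gene start (horizontal axis, bp, negative is upstream) as the share of sites per 100 bp (vertical axis, %), for 902 HSC-only, 142 shared and 214 MEP-only sites. All 3 curves peak within 100 bp of the start, and the MEP-only curve is the widest, with 76.6% of its sites within 250 bp.

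The shared class held a larger part of the highest values of each list. Shared were 96 of the 460 HSC sites in the highest of 4 equal groups by value (20.9%, 17.4 to 24.8) and 42 of 460 in the lowest (9.13%, 6.83 to 12.1). In MEP these were 91 of 207 (44.0%, 37.4 to 50.8) and 52 of 208 (25%, 19.6 to 31.3). Across the 254 pairs the values of the 2 lists had a Spearman rho of 0.33, as a description over sites that come from the same 2 libraries. Values of different lists are not on a common scale, so a value in HSC and one in MEP, medians included, are given side by side and not compared in size.

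Shared sites that were not within 1 kb of a coding gene start or end overlapped the other deposited lists more often than those that were. Of these 87 sites, of which 26 lay inside coding genes and 24 outside genes, 36 (41.4%, 31.6 to 51.9) overlapped a peak of a heterozygous MOF list or of the GATA1 list, against 9 of the 167 at a coding gene start or end (5.39%, 2.86 to 9.92). The 45 shared sites found in another list had median values of 12.3 in HSC and 24.6 in MEP, and the other 209 had 5.92 and 5.76. Among the latter, 75.6% lay at a coding gene start or end, and rho was 0.14. Of the 15 shared sites with the highest HSC values, 13 were in another list. Of these 15, 9 overlapped peaks of the 3 other lists at once: the site at the start of Kat8, those inside Jarid2, Peak1, Filip1l, Cdk8, Lars2 and Zc3h7a, and those 282 kb from Pex2 and 61.1 kb from Axin2. The 15 ranked between 1 and 17 among all HSC sites. Whether they lie in repeats was not tested.

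**Figure D3:**
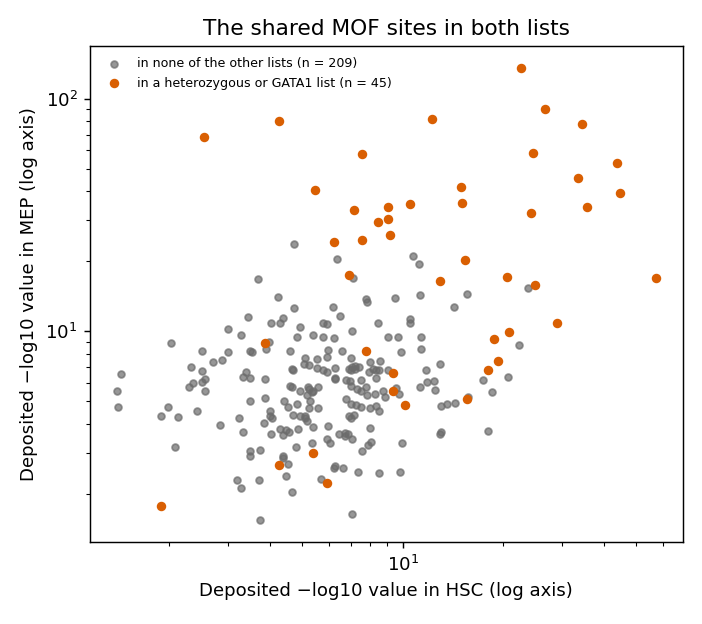
Deposited −log10 value of each of the 254 shared sites in HSC (horizontal, log axis) and in MEP (vertical, log axis). Orange points are the 45 sites that also overlap a heterozygous MOF or GATA1 peak, with medians of 12.3 and 24.6, and grey points are the other 209, with medians of 5.92 and 5.76.

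The highest shared sites at coding genes lay at Kat8 itself and at genes of varied cell functions. After Kat8 (34.4 in HSC and 78.1 in MEP) came a further site within Kat8 that lies close to an end of Prss8 (22.6 and 135), and Nme1 (22.2 and 8.74). A single summit near the starts of Rhbdd3 and of Ewsr1, an RNA-binding protein gene, had 20.6 and 6.32. It was followed by Get4, which acts in the insertion of tail-anchored membrane proteins (18 and 3.71), and by a summit near the starts of the tRNA methyltransferase gene Trmt2a and of Ranbp1, a regulator of the Ran cycle (17.4 and 6.13). Next were the transcription factor gene Zfp335 (15.7 and 5.21), the kinase gene Pim1 (14.3 and 4.88), Gtpbp6 (13 and 3.68), Crocc (12.9 and 7.23), the actin-nucleating Arp2/3 subunit gene Actr3 (12.9 and 3.62) and Rpl5 (12.4 and 6.12). The 2 sites at Kat8 were also in the GATA1 list. The others in this group, apart from the site at Adprhl2, which overlapped a heterozygous HSC peak, were in none of the other lists.

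HSC-only sites seldom overlapped the other lists, and most of their highest members lay at coding genes. Of 1585, 24 (1.51%, 1.02 to 2.24) overlapped a heterozygous or GATA1 peak, and 35 of the 50 highest lay at a coding gene. The highest of all were 5.57 kb from Cd209a (28.5, rank 8 in HSC) and 2.59 kb from Atp13a2, a lysosomal ATPase gene (21.4). The highest at coding genes were Tpt1 (20.3), the SR-related splicing gene Scaf11 (18.6), the phosphoinositide kinase gene Pip4k2b (18.1), the chromatin remodelling gene Rsf1 with Aamdc (17.7), Msh6 (16.9), the Golgi stacking gene Gorasp2 (16.9) and Fem1b, a substrate receptor of a ubiquitin ligase (16.5). Gorasp2 was the only one of these found in another list, that of heterozygous HSC. Further down came Pafah2 (16.1), then Yif1b, Trappc9 and Fchsd2, which act in membrane traffic (15.9 each), the Ras GTPase-activating gene Rasa1 (15.6), Dhrs11 (15.3) and St13 with Xpnpep3 (15.2).

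Sites called in MEP only differed at their top from HSC-only sites, and less so from shared ones. All 15 MEP-only sites with the highest values were in at least 1 other list and none lay within 1 kb of a coding gene start or end. Of the 15 highest HSC-only sites 1 was in another list and 8 were at a start or end, and of the 15 highest shared sites 13 and 3. Of the 50 highest MEP-only sites 28 (56%) were in another list and 6 were at a start or end. Among the 15, the sites at Myo3a, Chl1, Cpeb4 and Kat8 lay inside those genes. The first were inside a gene not annotated as coding at position 4626351 of chromosome 17 (202, 368 kb from Arid1b), at the non-coding gene AY036118 (82.3), at position 24613415 of chromosome 1 (65.2) and at 3 positions of chromosome 2 between 98662573 and 98666807 (59.7, 52.3 and 43.4), more than 1 Mb from Lrrc4c. All of the 15 except the site at Kat8 overlapped a heterozygous HSC peak, so the name of the class says only that no wild-type HSC site overlapped them. Beyond the sequences and the part of chromosome 9 named above, no sites were set aside. Whether these positions hold repeats was not tested. Of all 575 MEP-only sites 46 (8%, 6.05 to 10.5) were in another list, 44 of them among the 315 sites not within 1 kb of a coding gene start or end, 137 of which lay inside a coding gene, and 2 among the 260 at a start or end. For comparison, 39 of the 575 overlapped a heterozygous HSC peak (6.78%), against 24 of the 1585 HSC-only sites.

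At coding genes the MEP-only class began lower in the list and with histone and chromatin genes. Its first members were the histone gene H4c17 (16, rank 61 in MEP) and Smarca5 (15.9), followed by the microtubule minus-end gene Camsap1 (12.9), the ribosome biogenesis gene Nol11 (12.8), the RNA-binding protein gene Pcbp2 (11.2), Phf23 (10.8), and Eif4a3, a core part of the exon junction complex (10.8). Then came Cdk2ap2 (10.6), Akt2 (10.3), Fbrs (10.2), H4c9 (10.1), the mitochondrial DNA polymerase gene Polg (9.70), Rpl41 (9.59), the RNA helicase gene Ddx18 (9.49) and H3c11 (9.40). None of these 15 sites was in another list.

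In all, 1184 coding genes (5.47% of 21627) had an HSC-only site within 1 kb, 194 (0.897%) a shared site and 307 (1.42%) a MEP-only site. With the shared sites counted on both sides, 1369 genes (6.33%) had an HSC site and 493 (2.28%) a MEP site. A site near several genes counts for each of them, and a gene can be in several classes: 19 had HSC-only and MEP-only sites, 9 HSC-only and shared sites and 7 shared and MEP-only sites. The functions of these genes were described with 29 lists of genes, each read against the percentage of its class.

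Which of the classes a list favoured depended in part on the greater length of the HSC list. With lists of equal length, 525 coding genes had an HSC-only and 107 a shared site, and fewer had a MEP-only than an HSC-only site. An equal count therefore stands higher against the background of the MEP-only class than against that of the HSC-only class. Splicing and RNA polymerase II genes then still had more HSC-only than MEP-only members (17 against 6 and 15 against 7), and histone genes fewer (2 against 30). Cytosolic ribosomal protein genes changed order, from 16 against 6 to 6 against 12. The counts became equal for ribosome biogenesis (5 and 5), translation (6 and 6), mitochondrial ribosomal protein (4 and 4), zinc finger (9 and 9), cell cycle (11 and 11), oxidative phosphorylation (1 and 1) and stem cell genes (1 and 1). For chromatin genes they became 11 and 13, for the ubiquitin system 14 and 15, for mitochondrial import and genome maintenance 5 and 7, for p53 and stress genes 2 and 3, and for cytokine signalling 3 and 4. Only the HSC list was shortened, so a pair whose HSC site was left out moved from shared to MEP only. Shared members fell from 18 to 8 for histone and from 11 to 5 for cytosolic ribosomal protein genes. For ribosome biogenesis they fell from 4 to 1 and for cell cycle from 8 to 4. The changed order and most of the equal counts therefore rest in part on this move. The percentages below are of the full lists.

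Histone genes had the largest share of any list in the shared and MEP-only classes and stood near the background in the HSC-only class. Of 94 histone genes, 18 had a shared site (19.1%, 12.5 to 28.3) and 21 a MEP-only site (22.3%, 15.1 to 31.8), and 7 had an HSC-only site (7.45%, 3.65 to 14.6). The shared members with the highest HSC values were H4c3 (11.9 in HSC and 6.05 in MEP), H2bc6 (8.51 and 6.79), H2ac18 (8.46 and 10.9) and H2ac6 with H2bc4, which share a summit (8.24 and 5.38). The MEP-only members after H4c17, H4c9 and H3c11 were the pairs H2ac15 and H2bc15 (7.39) and H2ac23 and H2bc23 (7.38). H3c6 (8.68) and H3c14 (5.70) led the HSC-only members. Histone genes are clustered and alike in sequence, so 1 site can count for several genes, and their assignment to a single copy is uncertain. The median HSC value of histone genes was 4.28 in the HSC-only and 5.32 in the shared class, against 5.13 and 6.14 over all coding genes with such a site. The median MEP value of the MEP-only class was 5.98, against 5.03. With lists of equal length 8 histone genes were shared.

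Ribosomal protein genes were above the background in all 3 classes. Of 86 genes for proteins of the cytosolic ribosome, 16 had an HSC-only site (18.6%, 11.8 to 28.1), 11 a shared site (12.8%, 7.29 to 21.5) and 6 a MEP-only site (6.98%, 3.24 to 14.4). Rpl5 and Rpl3 (7.49 in HSC and 4.71 in MEP), Rps23 (6.99 and 6.77), Rpl27 (5.93 and 6.67) and Rps19 (3.89 and 6.20) were shared. Rpl26 (12.1), Rpl19 (7.28), Rps3 (7.26) and Rpl18 (7.02) led the HSC-only class, and Rpl41 (9.59), Rpl10 (4.84), Rpl38 (3.87) and Rpl39 (3.59) the MEP-only class. Genes that build ribosomes followed with 14 of 88 in HSC only (15.9%, 9.72 to 25), headed by Gar1 (11.3) and the RNA polymerase I gene Polr1b (11.2). Their shared members were Nop14 (5.92 and 7.73), the rRNA methyltransferase gene Fbl (5.54 and 7.62), Utp3 (4.48 and 3.74) and nucleolin, Ncl (2.42 and 4.54), and the MEP-only ones were Nol11 and Ddx18.

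Splicing genes were well above the background in the HSC-only and shared classes, with SR protein genes among the shared ones. Of 132 genes for splicing factors and hnRNPs, 28 had an HSC-only site (21.2%, 15.1 to 28.9), 10 a shared site (7.58%, 4.17 to 13.4) and 3 a MEP-only site (2.27%, 0.776 to 6.47). The shared members included the SR protein genes Srsf2 (11.3 in HSC and 9.45 in MEP), Srsf3 (8.31 and 6.30) and Srsf7 (8.02 and 3.32), with Hnrnph3 (8.30 and 6.80) and Puf60 (7.16 and 4.35). HSC-only members after Scaf11 were Bud31 (13), Srrm2 (11.2), Snrpe (10.7), Sf3b2 (10.2), Tardbp (9.91) and Hnrnpf (8.75). Snrpd2 (6.29), Sf1 (5.23) and Tra2b (5.14) were called in MEP only.

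Genes of the RNA polymerase II machinery were above the background in all 3 classes, at 5.47%, 0.897% and 1.42% in the order HSC only, shared and MEP only. Of 138 genes for the polymerase, general factors, Mediator and elongation or 3′ end factors, 28 had an HSC-only site (20.3%, 14.4 to 27.8), 4 a shared site (2.90%, 1.13 to 7.22) and 6 a MEP-only site (4.35%, 2.01 to 9.16). Gtf2h1, a subunit of TFIIH (12.9), the Integrator subunit gene Ints6 (11.3), Larp7, which holds the 7SK particle together (9.07), and the Mediator genes Med13 (8.48) and Med16 (8.21) were HSC only. Med20 (7.32 in HSC and 5.62 in MEP), Ints7 (6.51 and 11.6), the elongation kinase partner Ccnt1 (5.23 and 5.63) and Ell (4.56 and 3.70) were shared, and Cstf2t (8.96) headed the MEP-only members. Polr2a, the largest subunit of the polymerase, had an HSC-only summit (8.29) and a MEP-only summit (7.16) 320 bp apart.

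Other nuclear functions had lower shares than splicing and RNA polymerase II genes in the HSC-only class. Except for DNA replication and repair, their intervals overlapped those of the 2 lists. For chromatin modifiers and remodellers 24 of 228 genes were HSC only (10.5%, 7.18 to 15.2), 6 shared (2.63%, 1.21 to 5.62) and 10 MEP only (4.39%, 2.40 to 7.88). Smarcd1 (14.4), the H3K4 methyltransferase gene Setd1a (13) and the demethylase gene Kdm1b (12.9) followed Rsf1 in HSC, Brpf1 (11.3 in HSC and 14.3 in MEP) and Ep400 (10.5 and 10.9) were shared, and Bap1 (5.59), Brd7 (5.17) and the acetyltransferase gene Kat7 (5.0) were in MEP only. Cell cycle and mitosis genes were 29 of 216 in HSC only (13.4%, 9.51 to 18.6), with the cohesin gene Stag1 (13.4) first, 8 shared, among them Cdk4 (5.21 and 5.76) and Sgo1 (6.98 and 6.11), and 7 in MEP only, among them Ccna2 (4.54) and Cdk1 (3.8). DNA replication and repair genes were 15, 1 and 5 of 169, with Msh6, Parp2 (11.4) and Rrm1 (10.1) in HSC only, Nbn (4.38 and 3.59) shared and Mdc1 (6.36) in MEP only. The interval of the HSC-only share of this last list, 8.88% (5.45 to 14.1), reaches the 5.47% of all genes. Nuclear transport genes were 11, 4 and 1 of 75, with an HSC-only share of 14.7% (8.39 to 24.4). Cse1l (9.06) was first in HSC only, and Ranbp1, Tpr (8.71 and 5.51), Rcc1 (6.93 and 6.87) and Nup54 (4.38 and 2.89) were shared.

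**Figure D4:**
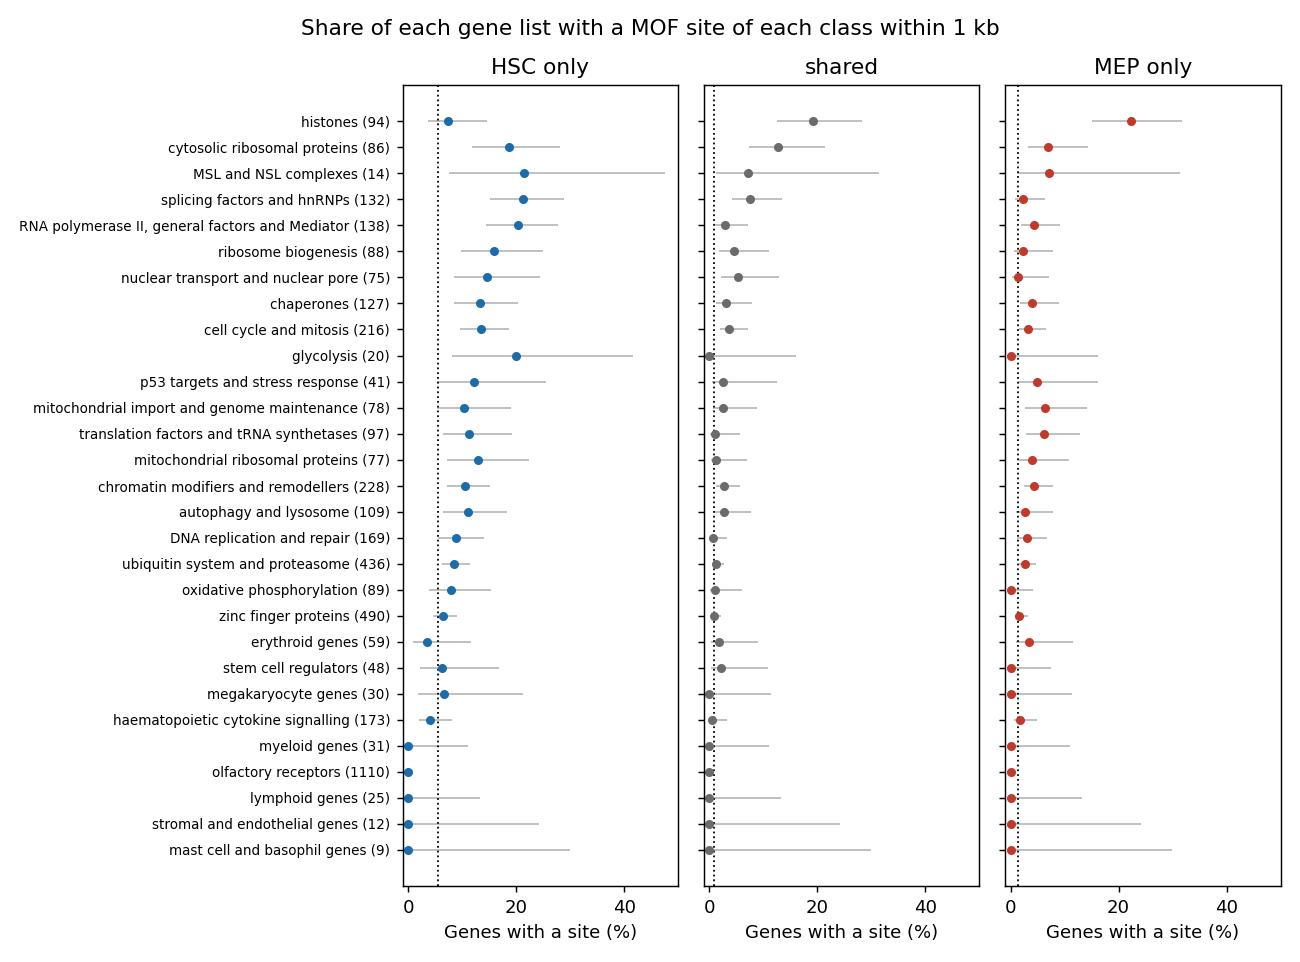
Share of the genes of each of 29 lists (rows, number of genes in brackets) with a MOF site of the class within 1 kb (horizontal axis, %), with 95% Wilson intervals in grey. Dotted lines mark all coding genes, at 5.47%, 0.897% and 1.42%, and the histone row stands at 7.45%, 19.1% and 22.3%.

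Genes of protein handling and of the mitochondrion are given in the order HSC only, shared and MEP only, to be read against 1184, 194 and 307 of all 21627 coding genes. The HSC-only intervals of oxidative phosphorylation (3.86 to 15.4%) and of mitochondrial import and genome maintenance (5.29 to 19%) reach the 5.47% of all genes. Chaperone genes were 17, 4 and 5 of 127, with Dnajc13 (10.9) and Tcp1 (8.55) in HSC only, Hspa4 (6.25 in HSC and 6.91 in MEP), Hspa8 (4.70 and 6.78), Hsp90aa1 (6.27 and 2.64) and Calr (6.76 and 5.10) shared, and the chaperonin genes Cct5 (8.95) and Cct8 (5.61) in MEP only. Genes of the ubiquitin system and proteasome were 37, 5 and 12 of 436, with the proteasome gene Psmd3 (9.56 and 5.68) shared and Psmd5 (9.09) in MEP only. Translation factor and tRNA synthetase genes were 11, 1 and 6 of 97, with Eef2 (11.9) and the poly(A)-binding gene Pabpc1 (8.14) in HSC only, Eif1 (6.59 and 8.25) shared and Eif4a1 (7.22) in MEP only. Mitochondrial ribosomal protein genes were 10, 1 and 3 of 77 and genes of mitochondrial import and genome maintenance 8, 2 and 5 of 78, with Opa1, which fuses inner membranes (12), in HSC and Polg and Tfb2m (7.52) in MEP. Genes of oxidative phosphorylation were 7, 1 and 0 of 89, with Ndufs7 (4.86 and 3.8) the shared one, and glycolysis genes were 4, 0 and 0 of 20, namely Hk1 (8.37), Gapdh (4.82), Pfkl (4.30) and Aldoa (3.33). Autophagy and lysosome genes were 12, 3 and 3 of 109, with the lysosomal regulator Tfeb (9.95 and 3.31) shared.

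The complexes that contain MOF had sites of each class, at different members. Among 14 genes, Kansl3 (6.87), Mcrs1 (6.81) and Kansl2 (3.76), all of the NSL complex, were HSC only, Kat8 was shared, and Phf20 (8.42), also of the NSL complex, was MEP only. The shares were 21.4% (7.57 to 47.6), 7.14% (1.27 to 31.5) and 7.14% (1.27 to 31.5). Over all coding genes they were 5.47%, 0.897% and 1.42%. The 3 intervals are wide and overlap, so the classes cannot be told apart by this list. Within Kat8 on chromosome 7 lay 3 shared sites, with HSC summits at 127912604 (87 bp after the start), 127915427 and 127924846, and a MEP-only site at 127920512 (24.2). All 4 also overlapped GATA1 and heterozygous MEP peaks.

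Few lineage genes had a site at their start, and none of the lineage lists stood clear of the background. Of 48 stem cell regulators 3 were HSC only (6.25%, 2.15 to 16.8), the transcription factor genes Lyl1 (7.25), Foxo3 (4.15) and Hlf (3.30), 1 was shared, Txnip (3.33 in HSC and 6.33 in MEP), and 0 were MEP only. Relative to the gene start, their summits lay at 177 bp in Lyl1, −48 bp in Foxo3, −44 bp in Hlf and −10 bp in Txnip. Erythroid genes were 2, 1 and 2 of 59: the survival gene Bcl2l1 (8.05) and Nfe2 (6.53) in HSC only, the GATA1 cofactor gene Zfpm1 (5.99 and 8.28) shared, and the transferrin receptor gene Tfrc (8.35, summit at −81 bp from the start, position 32609041 of chromosome 16) and the carbonic anhydrase gene Car1 (7.56) in MEP only. The MEP-only share was 3.39% (0.935 to 11.5). Megakaryocyte genes were 2, 0 and 0 of 30, Nfe2 and Cxcr4 (2.67). Cytokine signalling genes were 7, 1 and 3 of 173, with Nfkb2 (8.20), Ifngr1 (5.37 and 3.31) and Akt2 first in each class.

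Markers of other cells that a sort could hold had no site within 1 kb. Of 31 myeloid, 25 lymphoid, 9 mast cell and basophil and 12 stromal and endothelial genes, 0 had a site of any class within 1 kb. With 0 of 31 the upper limit of the interval is 11%, so a low share was not detectable in lists of this size. Of 1110 olfactory receptor genes, which are silent in blood cells, 0 had a site either (upper limit 0.345%). With a window of 5 kb, MEP-only sites counted for 2 myeloid, 1 lymphoid and 2 olfactory receptor genes. Zinc finger protein genes were near the background in all 3 classes (32, 4 and 8 of 490, or 6.53%, 0.816% and 1.63%). Of 41 p53 target and stress response genes, 5, 1 and 2 had a site: Trp53 (6.70) headed the HSC-only class, Txnip was the shared member, and Atf4 (6.63) headed the MEP-only class.

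Some genes had a site in each list at separate positions. These were 19 genes, with Polr2a, Gga1 (7.02 in HSC and 2.62 in MEP, 1030 bp apart), H3c14 (5.70 and 6.95, 514 bp), Larp4 (5.64 and 3.81, 337 bp) and the oxidative stress regulator gene Nfe2l2 (5.54 and 4.37, 1084 bp) among those with the highest HSC values. For Polr2a and Larp4 the extended sites missed each other by less than 100 bp, so their place in separate classes rests on the width given to a summit.

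Promoters that held a summit were rich in CpG in all 3 classes. The 300-bp windows of the RefSeq table (250 bp before to 50 bp after a start) held an HSC-only summit in 696 cases, a shared one in 105 and a MEP-only one in 135. Their median number of CpG was 27, 25 and 23, against 13 over all 21044 coding promoters, and their median GC content 65%, 63.3% and 61%, against 56.7%. Motif shares were therefore set beside those of the 7639 promoters with 20 or more CpG, a limit chosen after the values were seen. The promoters of the classes were not held to this limit, so the sets are not matched in CpG. The lower quartile of their CpG number was 21, 22 and 18, against 23 in the CpG-rich set.

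The ETS motif CCGGAAG was found in 32.8% (29.4 to 36.3) of HSC-only promoters, against 20.3% of CpG-rich and 11.7% of all promoters. In shared and MEP-only promoters it was found in 21% (14.3 to 29.7) and 23.7% (17.3 to 31.5), which reach down to the CpG-rich level. GGGCGG was in 74.7%, 83.8% and 66.7% of the classes in the same order and in 81.4% of CpG-rich promoters. AGATAA, the GATA motif, was in 4.02% (2.80 to 5.75), 1.90% (0.524 to 6.68) and 5.19% (2.53 to 10.3), against 2.50% of CpG-rich and 9.68% of all promoters. The YY1 motif was in 2.73%, 2.86% and 5.19% (2.53 to 10.3 in MEP only), against 2.41% of CpG-rich promoters, and the NRF1 motif in 1.72%, 0.952% and 1.48%, against 2.59%. CCAAT was in 36.4%, 30.5% and 39.3%, against 33.8%, TATAAA in 5.60%, 7.62% and 5.93%, against 3.67%, and TGACGTCA in 4.60%, 3.81% and 2.22%, against 3.91%. A match is a run of letters and not a measured binding site.

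**Figure D5:**
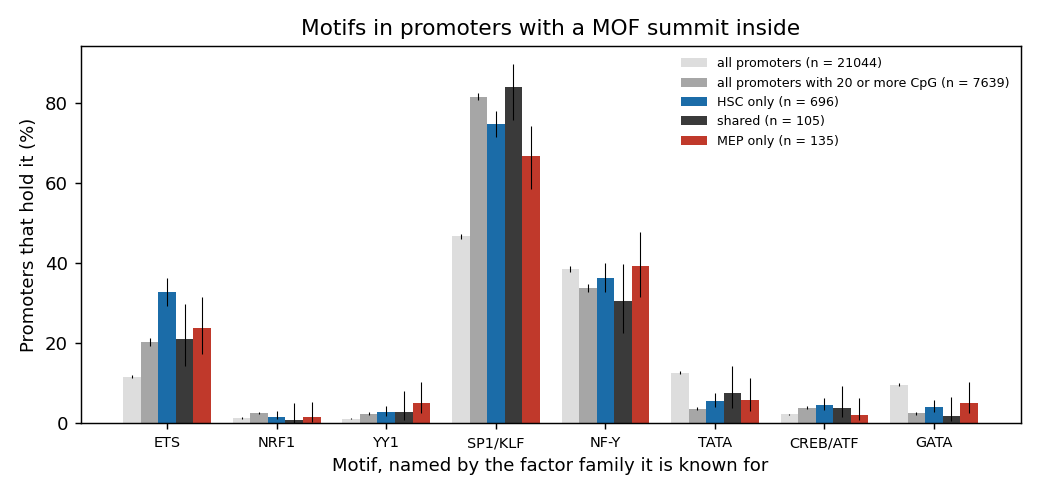
Share of promoters (vertical axis, %, with 95% Wilson intervals) that hold each of 8 motifs on either strand, for all 21044 coding promoters, the 7639 with 20 or more CpG, and those with an HSC-only (696), shared (105) or MEP-only (135) summit inside. The ETS bar of the HSC-only class, at 32.8%, stands above that of the CpG-rich promoters, at 20.3%.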

How the data were processed

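MOF ChIP-seq peak lists of 1 wild-type HSC and 1 wild-type MEP library were compared. Bowtie2 2.3.0.1, deepTools and MACS2 with build mm10 are named per the submitters' processing notes; settings, duplicate filter and the input matched to each library are not stated in those sources. The deposited −log10 value of each summit is the authors' own. It carries no header, and since its minimum lies just above 1.30, the −log10 of 0.05, it was taken as a −log10 q-value. In the heterozygous lists the authors deposited intervals with −log10 q-values, and the GATA1 list holds intervals whose only other deposited values are start and end positions; they served for overlap only. Depth is unknown.

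Summits were extended by 150 bp and classed by overlap (Python 3.11.15, pandas 2.3.3), which was tested on simulated data. Genes came from RefSeq GRCm38.p6, the same build, with starts from its promoter table for 17273 coding genes. The classes, genes and lists were chosen with earlier results of these data known. Named were the 15 highest sites and the 15 highest genes of each class, up to 8 members per list and class, and up to 10 genes with sites in both lists at different positions; the CpG limit and sites chosen after their values were seen are stated as such. Alternatives were other extensions, overlaps, value limits, equal list lengths, gene windows and removal of sites in other lists. Some genes that the naming rule selects are not reported here.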

Additional observations from a re-analysis of the deposited data

How the results depend on the processing

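No paired analysis was possible because each group has 1 library. The number of shared sites was 166 with an extension of 50 bp. Among sites at or above the median value of each list, 809 were HSC only, 111 shared and 305 MEP only, and 50.5% of the shared ones were at a coding gene. With lists of equal length, 681 were HSC only and 148 shared, at 525 and 107 coding genes, and 49.6% of the MEP-only sites were at a coding gene. The share of shared sites at a coding gene was 71.4% without sites in the GATA1 list and 75.6% without sites in any of the 3 other lists, the latter chosen after seeing the data. With a window of 500 bp it was 63.0% for HSC-only sites. A window of 5 kb gave 72.7%, 72.4% and 53.9% for HSC-only, shared and MEP-only sites, and either end of every coding gene, also chosen after seeing the data, gave 62.3% for HSC-only sites. The MEP-only share at a coding gene was the lowest of the 3 classes under each setting for which that share was computed, which leaves out the changes of extension, overlap and chromosome 9. Of the 29 gene lists, 22 changed by more than 1.5 times in the HSC-only class, 14 in the shared and 7 in the MEP-only class with lists of equal length. An extension of 500 bp, a required overlap of 50% and the whole of chromosome 9 each moved the site counts of the classes by less than 1.5 times.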

Other observations

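Genes annotated as snRNA were most frequent, as a share of sites, in the shared class. Within 1 kb of an snRNA gene lay 20 of 254 shared sites (7.87%, 5.15 to 11.8), 6 of 1585 HSC-only sites (0.379%, 0.174 to 0.823) and 8 of 575 MEP-only sites (1.39%, 0.707 to 2.72). The shared genes include Rnu11, which encodes an RNA of the minor spliceosome (14.3 in HSC and 12.7 in MEP), Rnu1a1, a U1 gene (10.7 and 21.1), Rnu2-10, a U2 gene (4.71 and 23.7), and Rnu3b4, a U3 gene (9.49 and 13.8). Rnu12 (7.44) and Rnu7 (3.23) were HSC only, each with a summit also within 1 kb of a coding gene, and the 7SK gene Rn7sk was MEP only (10.5, position 78175683 of chromosome 9, 50 bp from an end of the gene). The RNase P and RNase MRP RNA genes Rpph1 (11.4) and Rmrp (6.5) were HSC only, at summits also near Parp2 and Ccdc107. Many of these genes have near-identical copies, so their assignment to a single copy is uncertain.

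Transfer RNA genes were near 23 HSC-only sites (1.45%, 0.969 to 2.17), 7 shared (2.76%, 1.34 to 5.58) and 19 MEP-only sites (3.30%, 2.13 to 5.10). Counted as genes, these were 34, 12 and 34 of 408 annotated tRNA genes (8.33%, 2.94% and 8.33%). The number of tRNA genes was thus the same in the HSC-only and MEP-only classes. The long non-coding RNA gene Malat1 had separate summits in the 2 lists near the same gene end, 66 bp from it in HSC (17) and 243 bp from it in MEP (6.83). In the order HSC only, shared and MEP only, snoRNA genes were near 10, 4 and 4 sites (0.631%, 1.57% and 0.696%). MicroRNA genes were near 14, 2 and 5 (0.883%, 0.787% and 0.870%).

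The X chromosome carries 4.47% of the coding genes analysed and held 1.32% of HSC-only, 0.787% of shared and 2.61% of MEP-only sites.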
